A study of Mus musculus with 4 samples.

Results

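The genes described here are the organic anion, organic cation and drug transporters of the mouse kidney, which carry drugs, toxins, urate, hormones and metabolites between blood, tubule cell and urine. They were chosen by gene symbol and not by any measured value, though with earlier results of these data known. Every gene named Slc22a, Slco, Slc47a or Abcc with a number, plus Abcb1a and Abcb1b, was taken, which gave 55 of the 38924 genes listed. These were 25 Slc22a, 16 Slco, 10 Abcc, 2 Slc47a and 2 Abcb1 genes. RNA sequencing was carried out on kidney of female CB-17 SCID mice, which have a Balb/c background and, as SCID mice, no functional lymphocytes of the B and T lineages. One group received saline and the other IgG-Gd-IgA1 immune complexes, in which IgG is bound to galactose-deficient IgA1. Both were injected into the tail vein 3 times over 7 days, and the kidney was taken 1 day after the last dose. Each group had 2 libraries. The labels give no age and do not say that each library came from its own animal, so the tests measure only the spread between these samples.

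Organic anion and cation transporters work in series across the proximal tubule cell. Solutes enter from the blood side through uptake carriers, and leave into the urine through exchangers and ATP-driven pumps. Uptake of organic anions is coupled to the outward gradient of dicarboxylates, uptake of organic cations to the membrane voltage, and the final export of cations to the proton gradient. Some of these carriers differ in level between male and female mice.

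Levels per gene are given as exon reads per kilobase of exon per 1000000 reads (RPKM), which allow genes to be compared, and levels per library as all gene reads per 1000000 reads (CPM), which do not correct for length. Pairs of values are given in the order replicate 1, replicate 2. Both units use TMM-scaled library totals, a scaling that sets aside the genes that differ most between libraries. The libraries held 19675879 to 22791960 reads on genes. The 55 transporters took 0.532% and 0.577% of these with saline against 0.493% and 0.497% with immune complexes. Proximal tubule markers that are not among the 55 were abundant in every library, with Slc34a1 at 3222 and 3011 CPM with saline against 3714 and 2438 CPM with immune complexes. In a piece of whole kidney, fewer cells of a type and less RNA per cell cannot be told apart.

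No transporter passed the test between groups. Of the 55, 44 had enough reads to be tested, and 0 were called higher and 0 lower in edgeR's quasi-likelihood test with Benjamini-Hochberg adjustment at 0.05. Over all 16334 tested genes that test called 0.0%. Every transporter had an adjusted p of 1.0 in edgeR. At an unadjusted p under 0.05 there were 2 of the 44, against 4.59% of all tested genes. Both, Slco4a1 and Abcc1, were lower in immune complex kidneys, against 2.6% of all genes, and 0 were higher, against 1.98%. DESeq2 called 0 transporters, against 0.37% of all genes with a read, and limma-voom also called 0. The 11 with too few reads were Abcc8, Abcc12, Slc22a20, Slc47a2, Slco1a1, Slco1b2, Slco1c1, Slco5a1, Slco6b1_1, Slco6b1_2 and Slco6c1. The authors' deposited table lists 44 of the 55 and calls 0 of them, against 0.496% of all its genes. Of these genes 1, Abcc1, had an unadjusted p under 0.05 there.

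Groups did not overlap for 10 of the 44, or 22.7%, against 30.0% of all tested genes. In 5 of these, Abcb1b, Slc22a3, Slco1a5, Slco6d1 and Abcc2, both immune complex libraries were above both saline libraries (background 15.4%). In the other 5, Slco4a1, Abcc1, Slc22a12, Slc22a4 and Slc22a2, they were below (background 14.6%). The log2 fold changes, written throughout as immune complex over saline, ranged from -1.38 for Slco4a1 to 0.93 for Slco1a5. For 39 of the 44 the size was under 0.5. The median was -0.017 over the 44 and 0.010 over all tested genes, with 20 positive and 24 negative. The median size without regard to sign was 0.19 for the transporters and 0.16 for all tested genes. The plot of log2 fold changes shows that the intervals of all but Slco4a1 and Abcc1 span 0, and these intervals are not adjusted for the number of genes.

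**Figure D1:**
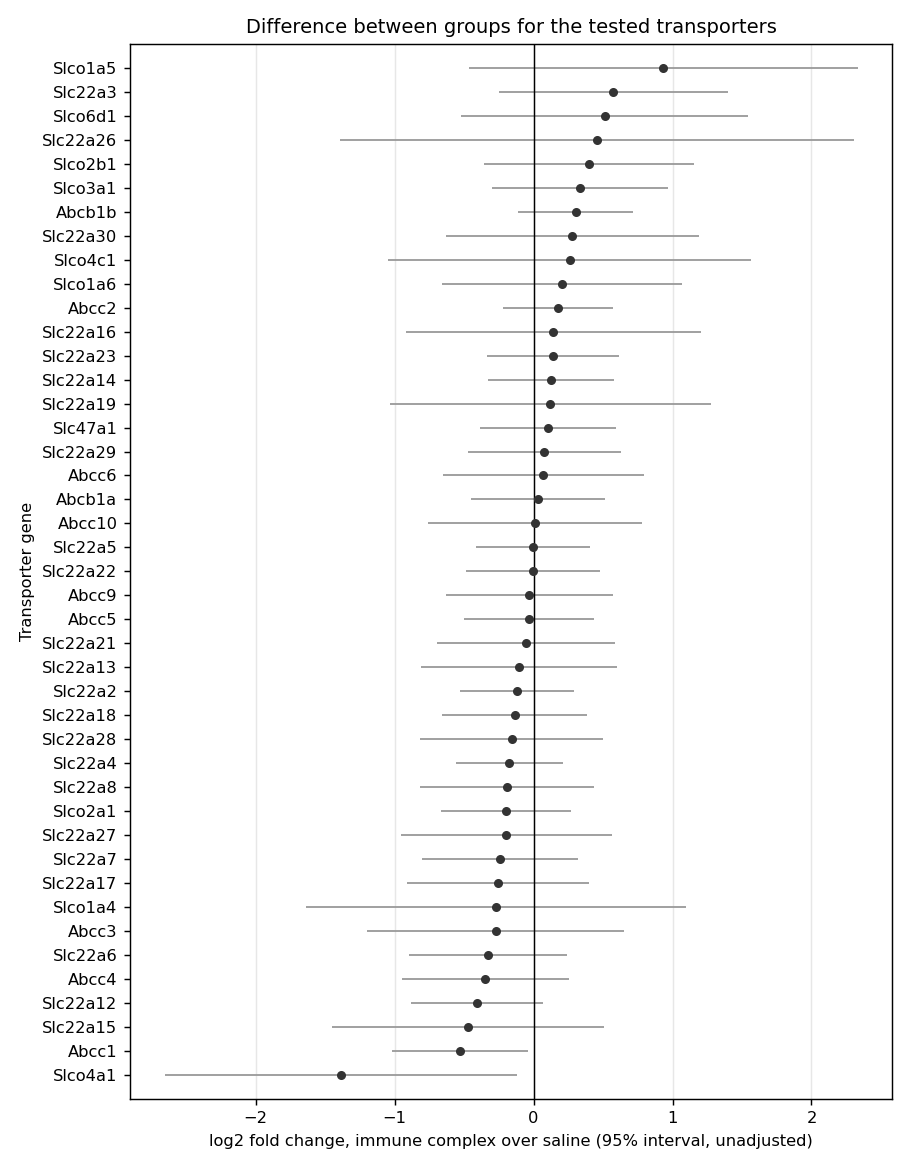
Each point is the log2 fold change (x axis, immune complex over saline) of 1 of 43 tested transporters (y axis), and each bar its unadjusted 95% interval from the edgeR fit on 2 libraries per group. Points run from -1.38 (Slco4a1) to 0.93 (Slco1a5), and 38 lie within 0.5 of 0.

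The promoters of Slco4a1 and Abcb1b are shown because these genes ranked first by the edgeR test among those with a negative and with a positive difference. GC boxes, GGGCGG or CCGCCC on the other strand, which SP1 binds, are in capitals. The sequences are from RefSeq (GRCm38.p6), 5′ to 3′ on the strand of the gene, and end at the base before the annotated start.
Slco4a1 (chr2:180455995-180456244, plus strand): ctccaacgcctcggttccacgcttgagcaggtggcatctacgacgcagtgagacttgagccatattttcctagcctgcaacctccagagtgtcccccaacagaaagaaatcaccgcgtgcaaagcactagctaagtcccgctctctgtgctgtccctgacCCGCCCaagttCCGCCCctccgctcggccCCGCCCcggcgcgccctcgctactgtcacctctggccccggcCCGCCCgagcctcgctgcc
Abcb1b (chr5:8797897-8798146, plus strand): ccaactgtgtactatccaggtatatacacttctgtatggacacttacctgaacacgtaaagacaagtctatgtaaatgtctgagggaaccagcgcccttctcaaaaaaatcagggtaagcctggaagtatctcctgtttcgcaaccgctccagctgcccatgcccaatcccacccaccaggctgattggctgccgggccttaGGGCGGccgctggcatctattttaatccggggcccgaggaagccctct
Slco4a1 had 4 matches, beginning 90, 79, 61 and 19 bases before the start, and Abcb1b had 1, beginning 48 bases before it. Of the 50 RefSeq promoters of 43 transporters, 14 had at least 1 match in these 250 bases, and 32.7% of all 32851 promoters of that length did. Slco4a1 has a further RefSeq promoter without a match. A match describes letters only.

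The most abundant transporters were carriers of the proximal tubule. By exon RPKM, 10 of the 55 had a mean of at least 50 over the 4 libraries and 21 at least 10, and 18 were under 1. Among these 10, in order of mean RPKM, were Slc22a12, Slc22a8, Slc22a18, Slc22a7, Slc22a6, Slc22a5, Slc47a1, Slc22a2 and Slco1a6. Slc22a12, the urate exchanger URAT1, stood first at 234 and 287 RPKM with saline against 208 and 184 RPKM with immune complexes. Only 21.5% of its gene reads were counted as unique, against 99.99% for Slc22a8. Its first place therefore rests mostly on reads not counted as unique. The lowest library of Slc22a12 was below the highest of Slc22a8, and neighbours further down this order also overlapped, except that every library of Slc22a5 was above every library of Slc47a1.

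**Figure D2:**
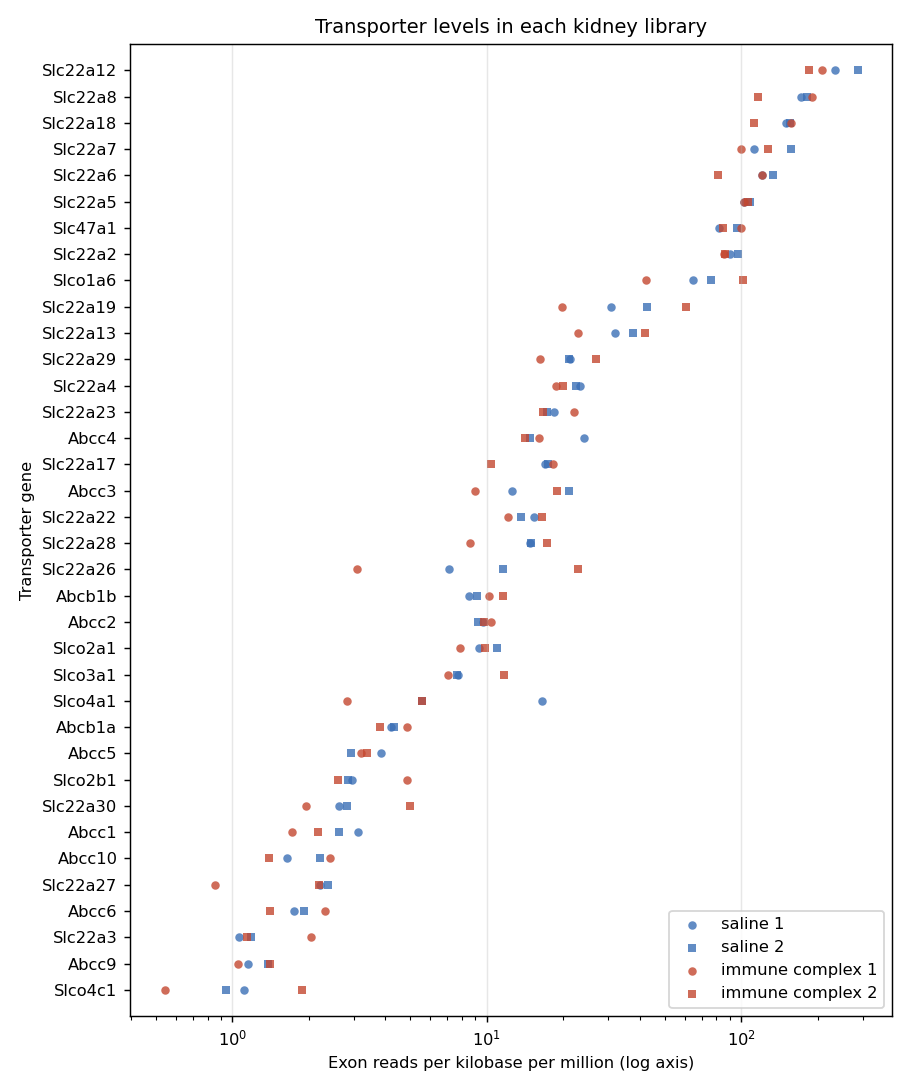
Exon RPKM (x axis, log scale) in each of the 4 libraries are shown for 36 transporters with a mean of at least 1 (y axis, ordered by mean). Blue marks saline and red immune complex, circles replicate 1 and squares replicate 2. The 9 genes at the top have a mean of at least 50, and Slc22a26 and Slco4a1 show the widest scatter between libraries.

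Uptake of organic anions from blood is carried out by Slc22a6 (OAT1) and Slc22a8 (OAT3), which take up para-aminohippurate, diuretics and many other drugs. Slc22a6 stood at 491 and 541 CPM with saline against 495 and 328 CPM with immune complexes. Immune complex 2 was the lowest library, while immune complex 1 lay between the saline libraries, so the groups overlapped. The log2 fold change was -0.33 (95% interval -0.89 to 0.24). Slc22a8 stood at 616 and 656 CPM with saline against 695 and 420.3 CPM with immune complexes. Here immune complex 1 was the highest and immune complex 2 the lowest of the 4, with a log2 fold change of -0.19 (95% interval -0.82 to 0.44), which was 0.13 without immune complex replicate 2. Slc22a7 (OAT2), another organic anion carrier, stood at 227 and 318 CPM with saline against 204 and 257 CPM with immune complexes, with overlapping groups and a log2 fold change of -0.24 (95% interval -0.80 to 0.32). Without saline replicate 2 its difference was 0.013.

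Slc22a8 and Slc22a6 are neighbours on chromosome 19 of GRCm38, with 6161 bases between them in the coordinates of the files. Both had their lowest level in immune complex 2, unlike the 6 further Slc22a genes of the same stretch described later.

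Organic cations such as metformin enter from the blood through carriers that include Slc22a2 (OCT2). Slc22a2 stood at 193 and 210.3 CPM with saline against 185 and 186 CPM with immune complexes. Both immune complex libraries were slightly below both saline libraries, with a log2 fold change of -0.12 (95% interval -0.53 to 0.29). Slc22a3 (OCT3), which carries monoamines, was far lower, with 78, 91, 172 and 93 reads in saline 1, saline 2, immune complex 1 and immune complex 2. Its level was 3.84 and 4.30 CPM with saline against 7.71 and 4.39 CPM with immune complexes, so that immune complex 1 alone stood high. The log2 fold change was 0.57 (95% interval -0.25 to 1.40), and 0.11 without immune complex replicate 1. Per length, mean exon RPKM was 89.9 for Slc22a2 and 1.36 for Slc22a3.

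Export of cations into the urine in exchange for protons is the role of Slc47a1 (MATE1). It stood at 299 and 369.9 CPM with saline against 395 and 323 CPM with immune complexes, with saline 1 lowest and immune complex 1 highest. The groups overlapped, and the log2 fold change was 0.10 (95% interval -0.39 to 0.60). It ranged from -0.047 to 0.26 when single libraries were left out. Its neighbour Slc47a2 (MATE2) had only 6, 8, 8 and 9 reads in that order of libraries and was not tested. Slc22a5 (OCTN2) recovers carnitine from the filtrate and varied little between libraries. It stood at 324 and 349.8 CPM with saline against 332 and 341 CPM with immune complexes, with a log2 fold change of -0.0034 (95% interval -0.41 to 0.41). Slc22a4 (OCTN1), the ergothioneine carrier next to it on chromosome 11, stood at 64.0 and 65.8 CPM with saline against 56.3 and 58.8 CPM with immune complexes. Both immune complex libraries were below both saline libraries, by a log2 fold change of -0.17 (95% interval -0.56 to 0.21). Slc22a21, the third carnitine carrier gene of that stretch, stood at 6.84 and 5.44 CPM with saline against 6.36 and 5.43 CPM with immune complexes, with 44.8% of its reads in introns.

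The urate exchanger Slc22a12 ranked first among Slc22a genes by the edgeR test, though its adjusted p was 1.0. It stood at 535 and 669.8 CPM with saline against 482 and 425 CPM with immune complexes, or 602 ± 95.5 CPM with saline against 454 ± 40.1 CPM with immune complexes (mean ± SD, n = 2 each). Both immune complex libraries were below both saline libraries. The log2 fold change was -0.41 (95% interval -0.88 to 0.065), and it ranged from -0.56 to -0.25 when single libraries were left out. Only 21.5% of its reads were counted by the authors as unique. The gene model lies wholly within that of Nrxn2 on the opposite strand, and whether the overlap bears on the unique share was not tested. Slc22a13 (OAT10), which carries urate and nicotinate, stood at 63.6 and 75.1 CPM with saline against 45.6 and 83.5 CPM with immune complexes, with 17.2% unique reads. Its groups overlapped, with immune complex 1 lowest and immune complex 2 highest.

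Slc22a14, which surrounds Slc22a13 in the gene models on chromosome 9 (119169455 to 119365553), was counted at 186 and 226 CPM with saline against 212 and 238 CPM with immune complexes. Of its 18323 reads over the 4 libraries only 8 lay in its exons and 13.0% were unique. The model also spans Acaa1a, with 5027 reads, and part of Xylb, with 23305 reads. Its mean exon RPKM was 0.0386, so the gene ranks high by gene reads and near 0 by exon reads.

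Several Slc22a carriers are found in rodents only or are little studied, and 6 of them lie side by side on chromosome 19 between 7673061 and 8405111. By gene reads, all 6 had their lowest level in immune complex 1 and their highest in immune complex 2. Slc22a19 (OAT5) stood at 170.3 and 238 CPM with saline against 109.7 and 334 CPM with immune complexes, a 3.05-fold difference within the immune complex group. Its log2 fold change between groups was 0.12 (95% interval -1.03 to 1.27). Slc22a26 stood at 21.4 and 35.0 CPM with saline against 9.41 and 68.1 CPM with immune complexes, the widest such spread at 7.24-fold, and its log2 fold change was 0.46 (95% interval -1.39 to 2.31). Leaving out single libraries moved Slc22a19 between -0.90 and 0.71 and Slc22a26 between -1.58 and 1.27, so neither had a stable direction. Slc22a27 stood at 8.07 and 9.13 CPM with saline against 5.47 and 9.55 CPM with immune complexes, with 49.2% of its reads in introns. By exon RPKM Slc22a27 stood at 2.22 and 2.37 with saline against 0.854 and 2.20 with immune complexes. Its highest library was then saline 2. Slc22a28 stood at 36.3 and 39.4 CPM with saline against 24.8 and 43.1 CPM with immune complexes. Slc22a29 and Slc22a30 followed the same order. Slc22a29 stood at 51.0 and 52.6 CPM with saline against 43.4 and 65.9 CPM with immune complexes. Slc22a30 stood at 11.8 and 13.2 CPM with saline against 9.28 and 21.2 CPM with immune complexes. These 4 genes, in the order given, differed within the immune complex group by 1.75, 1.73, 1.52 and 2.28 fold. Their unique reads were 45.8%, 45.7%, 68.2% and 60.0%. The counts of these similar genes are uncertain where reads can be shared, and whether the non-unique reads were shared among them was not tested.

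Outside that stretch, Slc22a22 (OAT-PG), a prostaglandin carrier, stood at 40.1 and 37.5 CPM with saline against 33.2 and 44.2 CPM with immune complexes. Slc22a18, an imprinted gene of the Cdkn1c region, stood at 263 and 276 CPM with saline against 286 and 204 CPM with immune complexes, with a lower value in immune complex 2 alone. Slc22a23, an orphan member of the family, stood at 121 and 114 CPM with saline against 147 and 112 CPM with immune complexes and was highest in immune complex 1. Slc22a17, the receptor for lipocalin 2, stood at 41.3 and 42.8 CPM with saline against 44.7 and 25.7 CPM with immune complexes and was again low in immune complex 2 alone. Slc22a15 had 125, 65, 63 and 81 reads in that order of libraries. Slc22a16, with 54 reads in all, and Slc22a20, with 7, had reads in introns only.

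Among organic anion transporting polypeptides, which carry bile acids, steroid conjugates and thyroid hormones without an ATP pump, Slco1a6 had the highest level per length in these kidneys. By gene reads it stood at 305 and 377 CPM with saline against 247 and 539.7 CPM with immune complexes. Immune complex 1 was the lowest and immune complex 2 the highest library, 2.19 fold apart, and the log2 fold change was 0.20 (95% interval -0.66 to 1.07). It turned to -0.47 without immune complex replicate 2. Its 5 neighbours on chromosome 6 were close to absent, with 0 to 21 reads per library. These were Slco1a1, a form known from male kidney, with 3, 2, 7 and 6 reads, Slco1a4, with 10, 12, 6 and 13 reads, Slco1a5, the liver form Slco1b2 and the brain form Slco1c1. Slco1a5 had the largest positive log2 fold change, 0.93 (95% interval -0.47 to 2.33), from 5, 12, 13 and 21 reads in that order of libraries, of which 88.2% lay in introns.

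Slco4a1, a carrier of thyroid hormone and prostaglandins, had the largest difference and the lowest p of the 44 (unadjusted p = 0.0367 and adjusted p = 1.0 in edgeR). It stood at 88.4 and 30.5 CPM with saline against 15.2 and 30.3 CPM with immune complexes, or 59.4 ± 41.0 CPM with saline against 22.8 ± 10.7 CPM with immune complexes. Saline 1 stood far above the other 3 libraries, and saline 2 was level with immune complex 2. The log2 fold change was -1.38 (95% interval -2.65 to -0.12). It was -0.42 with saline replicate 1 left out, and -1.97 with saline replicate 2 left out. In the latter setting edgeR called the gene (adjusted p = 3.6e-05), the lone saline library being assumed to vary like the immune complex pair. It was also called when the replicate numbers were crossed as a block, a setting chosen after seeing the data (log2 fold change -1.28, adjusted p = 0.018 in edgeR). DESeq2 gave Slco4a1 a log2 fold change of -1.39 with a standard error of 0.86 and did not call it. In the authors' deposited table, coded saline over immune complex, its log2 fold change was 0.27 (unadjusted p = 0.12, Wald test). Its standard error there was 0.17. That table lists the same counts, but both values are smaller in size than those of DESeq2 here. The reason is not stated, so the sizes cannot be set side by side. In that table Abcc1 and Slc22a12 had lower p. The summed level of 8 collecting duct markers was 2443 and 1097 CPM with saline against 1123 and 751 CPM with immune complexes, with Aqp2 the largest part in each library. None of the 8 passed the test, 6 had negative and 2 positive log2 fold changes, and 4 had both immune complex libraries below both saline libraries, against 14.6% of all tested genes. The water channel Aqp2, which vasopressin controls, stood at 1704 and 544 CPM with saline against 528 and 302 CPM with immune complexes, and Elf5 at 23.6 and 9.27 CPM with saline against 3.18 and 4.96 CPM with immune complexes. Those with a positive sign were Atp6v1g3, at 61.8 and 56.2 CPM with saline against 75.6 and 47.8 CPM with immune complexes, and Slc26a4. The part of these cells in the level of Slco4a1 was not tested.

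**Figure D3:**
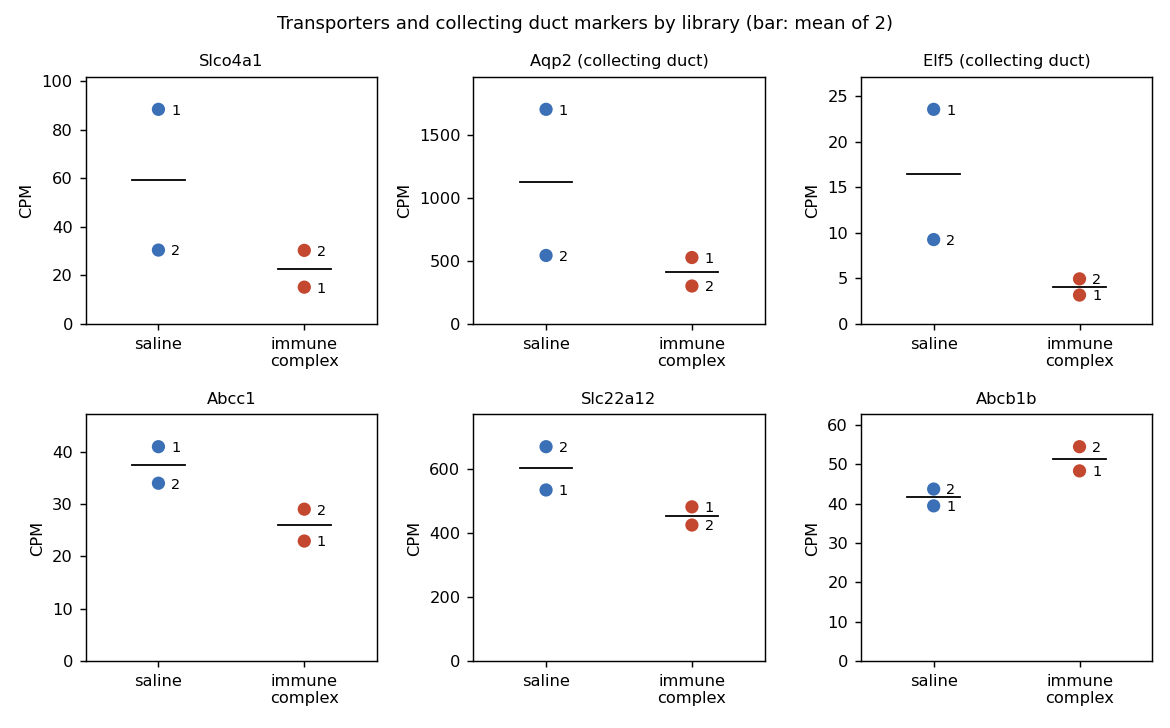
CPM (y axis, from 0) is shown by group (x axis) for Slco4a1, the collecting duct markers Aqp2 and Elf5, and the transporters Abcc1, Slc22a12 and Abcb1b. Points are libraries numbered by replicate and bars are means of 2. In the first 3 plots saline 1 stands well above the other 3 libraries, and in the last 3 the groups do not overlap.

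The remaining Slco genes were of middle or low level. Slco3a1 stood at 73.3 and 73.8 CPM with saline against 68.5 and 117 CPM with immune complexes and Slco2b1, which carries steroid sulfates, at 17.5 and 17.0 CPM with saline against 30.0 and 15.5 CPM with immune complexes. In each gene 3 libraries were level and 1 immune complex library was high, immune complex 2 for Slco3a1 and immune complex 1 for Slco2b1. Slco2a1, the prostaglandin transporter, stood at 39.2 and 46.3 CPM with saline against 33.3 and 41.3 CPM with immune complexes, with overlapping groups. Slco4c1, a carrier of digoxin and thyroid hormone, had 55, 53, 33 and 101 reads in that order of libraries, a 3.23-fold spread in CPM within the immune complex group. The Slco5a1, Slco6b1_1, Slco6c1 and Slco6d1 genes had 1 to 22 reads per library, all of them in introns except for 3 reads of Slco5a1. Slco6b1_2 had no read in any library, which allows up to 3 reads per library, or 0.134 to 0.148 CPM.

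ATP-driven export into the urine is the role of Abcc2 (MRP2), Abcc4 (MRP4) and the P-glycoproteins Abcb1a and Abcb1b. Abcc2, a pump of glutathione and glucuronide conjugates, stood at 60.3 and 60.3 CPM with saline against 72.2 and 64.0 CPM with immune complexes. Both immune complex libraries were slightly above both saline libraries, with a log2 fold change of 0.18 (95% interval -0.22 to 0.57). Abcc4, which exports cyclic nucleotides, urate and prostaglandins, stood at 144 and 90.1 CPM with saline against 97.2 and 86.6 CPM with immune complexes, so that saline 1 alone was high. Its log2 fold change was -0.35 (95% interval -0.94 to 0.25), and 0.028 without saline replicate 1. Abcb1b stood at 39.4 and 43.7 CPM with saline against 48.3 and 54.4 CPM with immune complexes, or 41.5 ± 3.01 CPM with saline against 51.3 ± 4.33 CPM with immune complexes. Of the transporters with a positive difference it ranked first by the edgeR test, with an adjusted p of 1.0. Both immune complex libraries were above both saline libraries, with a log2 fold change of 0.31 (95% interval -0.11 to 0.72) and a range of 0.22 to 0.39 when single libraries were left out. Its neighbour Abcb1a stood at 23.4 and 24.1 CPM with saline against 27.4 and 21.0 CPM with immune complexes, with a log2 fold change of 0.031 (95% interval -0.45 to 0.51). Unique reads were 80.3% for Abcb1a and 77.1% for Abcb1b. The pair is near-identical, so reads could be split between them, which was not tested. The difference between this pair was not tested either.

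Pumps that send conjugates back to the blood side include Abcc1 (MRP1), Abcc3 (MRP3), Abcc5 and Abcc6. Abcc1 stood at 40.9 and 34.0 CPM with saline against 22.9 and 29.0 CPM with immune complexes, or 37.4 ± 4.92 CPM with saline against 26.0 ± 4.29 CPM with immune complexes. Both immune complex libraries were below both saline libraries. The log2 fold change was -0.53 (95% interval -1.02 to -0.038), and it ranged from -0.71 to -0.37 when single libraries were left out. In edgeR its unadjusted p was 0.0385 and its adjusted p 1.0. In the authors' deposited table, coded saline over immune complex, its log2 fold change was 0.38 with an adjusted p of 1.0. As for Slco4a1, that size cannot be set beside the edgeR value. Abcc3 stood at 73.1 and 122 CPM with saline against 52.7 and 109 CPM with immune complexes, and replicate 2 exceeded replicate 1 in each group. Its log2 fold change was -0.27 (95% interval -1.20 to 0.65), which became 0.14 on leaving out saline replicate 2 and 0.16 on leaving out immune complex replicate 1. Abcc5, an exporter of cyclic nucleotides, stood at 42.2 and 32.5 CPM with saline against 35.4 and 37.5 CPM with immune complexes. Abcc6, whose human counterpart is mutated in pseudoxanthoma elasticum, stood at 10.7 and 11.5 CPM with saline against 14.9 and 8.46 CPM with immune complexes, and Abcc10 at 12.6 and 17.6 CPM with saline against 19.4 and 11.0 CPM with immune complexes. For the last 2, immune complex 1 was the highest and immune complex 2 the lowest library.

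Abcc8 and Abcc9 carry the family name but form the regulatory subunits of ATP-sensitive potassium channels. Abcc9, the vascular form, stood at 8.90 and 10.8 CPM with saline against 8.29 and 11.0 CPM with immune complexes, and its channel partner Kcnj8, a pericyte and smooth muscle gene, at 5.46 and 5.06 CPM with saline against 5.15 and 3.64 CPM with immune complexes. Abcc8, the pancreatic form, had 8, 11, 10 and 5 reads and Abcc12 2, 3, 5 and 4 reads in that order of libraries, and neither was tested.

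The 2 immune complex libraries differed from each other in transporter levels more than the saline libraries did. Among the 38 tested transporters with a mean of at least 5 CPM, the median ratio of the higher to the lower library was 1.37 within the immune complex group and 1.12 within saline. Over all 11433 genes at that level these medians were 1.25 and 1.09. The ratio was over 1.5 for 18 of the 38 (47.4%) within the immune complex group and for 4 (10.5%) within saline, against 19.9% and 5.31% of all genes at that level. The difference went both ways. For 11 of the 38 (28.9%) immune complex 2 was the highest and immune complex 1 the lowest of the 4 libraries, against 20.3% of all genes at that level. For 9 (23.7%) the order was the opposite, against 18.7%. The first set held Slco1a6, Slc22a13, Slc22a22, Slco3a1, Abcc9 and the 6 chromosome 19 genes, of which Slc22a27 had that order by gene reads only. The second included Slc22a8, Slc22a18, Slc22a23, Slc22a17, Slco2b1, Abcb1a, Abcc6 and Abcc10. In both sets the saline libraries lay between the 2 immune complex libraries, so their groups overlapped. These genes share the same 4 libraries and are not independent of each other.

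**Figure D4:**
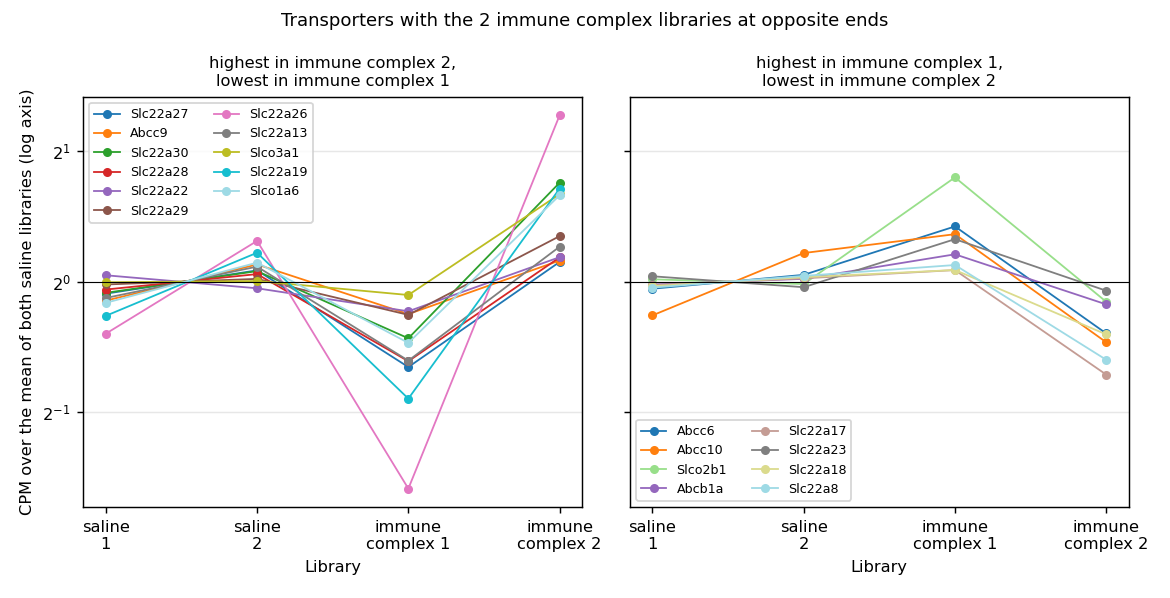
CPM divided by the mean of both saline libraries (y axis, log scale) is shown in each library (x axis) for the 11 transporters that were highest in immune complex 2 and lowest in immune complex 1 (left) and 8 with the opposite order (right). Lines join the values of 1 gene, and Slc22a26 has the widest spread, 7.24 fold between the immune complex libraries.

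Some proximal tubule genes outside these families had the same orders, and the 4 named here were picked after their values were seen. Atp11a, a late proximal tubule marker, stood at 459.8 and 643 CPM with saline against 301 and 897 CPM with immune complexes, and the bile acid carrier Slc10a2 at 67.8 and 61.6 CPM with saline against 28.9 and 82.8 CPM with immune complexes, as in the first set. The phosphate carrier gene Slc34a1 (values above) and Miox, at 1565 and 1664 CPM with saline against 1704 and 958 CPM with immune complexes, had the order of the second set. The summed level of the 6 late proximal tubule markers was 4624 and 6153 CPM with saline against 4849.6 and 6589.8 CPM with immune complexes. Slc7a13, the lowest of the 6 in each library, stood at 1.33 and 1.70 CPM with saline against 0.717 and 2.17 CPM with immune complexes. The summed level of the 6 early markers was 1964 and 1911 CPM with saline against 2197 and 2236 CPM with immune complexes. Slc7a13, Atp11a and Slc6a18, or 3 of the 6 late markers, had the order of the first set, and Slc5a2, Slc7a8 and Slc7a7, or 3 of the 6 early markers, that of the second. Over all genes with a mean of at least 5 CPM, 20.3% had the first order and 18.7% the second. The other early markers had neither order. Slc5a12, at 358 and 280 CPM with saline against 380 and 510 CPM with immune complexes, and Slc4a4 were highest in immune complex 2. These 2 and Slc6a19, or 3 of the 6 early markers, were higher in both immune complex libraries than in both saline libraries. None of the 6 were lower in both. Over all tested genes 15.4% were higher in both and 14.6% lower. Napsa, the most abundant late marker, stood at 3103 and 4099 CPM with saline against 3506 and 4165 CPM with immune complexes and had neither order. The part of tubule segments in the transporter levels was not tested.

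Partners of these carriers were described from lists drawn up by function, with earlier results of these data known. None of the genes below passed the test in either direction, over all genes. Of 8 genes that supply the driving gradients, 3 had positive and 5 negative log2 fold changes (median -0.047). Slc13a3, the dicarboxylate carrier that feeds Slc22a6 and Slc22a8, stood at 979.5 and 946 CPM with saline against 994 and 708 CPM with immune complexes and was lowest in immune complex 2, as they were. Of 5 scaffold genes 2 were positive and 3 negative (median -0.0082), with Pdzk1, which anchors Slc22a12 and the carnitine carriers at the apical membrane, at 1318 and 1376 CPM with saline against 1428 and 1435 CPM with immune complexes.

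Of 14 transcription factor genes 13 were tested, with 7 positive and 6 negative (median 0.0078). Hnf4a, which drives many of these carriers, stood at 637 and 655 CPM with saline against 692 and 840.4 CPM with immune complexes. Both of its immune complex values were above both saline values. Nr1i3 was too low to be tested. Of 23 further transporters of drugs, urate, bile acids, nucleosides and peptides 20 were tested, with 15 positive and 5 negative (median 0.10). Abcg2 (BCRP), the urate and drug pump of the apical membrane, stood at 197 and 205 CPM with saline against 184 and 234 CPM with immune complexes. Slc17a3, an apical urate exporter, stood at 314 and 388 CPM with saline against 235 and 411 CPM with immune complexes and Slc15a2, the peptide carrier, at 116 and 146 CPM with saline against 104 and 203 CPM with immune complexes, each with immune complex 1 lowest and immune complex 2 highest.

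Markers of other cells in the piece also differed between libraries. The summed level of 8 adipocyte markers was 56.6 and 457 CPM with saline against 1439 and 1101 CPM with immune complexes, with groups that did not overlap for 8 of 8, all higher with immune complexes, against 15.4% of all tested genes. That of 8 macrophage markers was 182 and 198 CPM with saline against 227 and 269 CPM with immune complexes, higher in both immune complex libraries for 5 of 8, against the same 15.4%. For 7 urothelium and mesothelium markers it was 75.5 and 92.3 CPM with saline against 16.4 and 18.3 CPM with immune complexes, and 2 of 7 were lower in both, against 14.6% of all tested genes. The 2 were Upk3b and Psca, with Psca at 46.3 and 26.8 CPM with saline against 3.76 and 4.30 CPM with immune complexes. Upk1a, Upk1b, Upk2, Upk3a and Krt5 were high in saline 2 alone and lowest in saline 1. Upk1b, for example, stood at 1.28 and 14.7 CPM with saline against 2.38 and 3.07 CPM with immune complexes. For 6 red blood cell markers the sum was 628 and 545 CPM with saline against 954 and 981 CPM with immune complexes. In both immune complex libraries 5 of 6 were higher (background 15.4%) and 1, Slc4a1, was lower (background 14.6%). Slc4a1 is also counted among the collecting duct markers that were lower in both. For 6 podocyte markers it was 402 and 387 CPM with saline against 519 and 395 CPM with immune complexes, with 4 of 6 higher in both (background 15.4%). Other lists held both signs of log2 fold change. The sum of 8 endothelial markers was 711 and 561 CPM with saline against 601 and 523 CPM with immune complexes, with 1 higher and 3 lower in both. Of 8 smooth muscle and pericyte markers 3 were higher and 0 lower in both, and of 6 thick ascending limb and distal markers 1 was higher and 0 lower. The background for these lists is the same 15.4% higher and 14.6% lower. None of these markers passed the test. The lists were chosen with earlier results of these data known. Markers of 1 list share the same 4 libraries and are not independent of each other. The 12 proximal tubule markers summed to 18764 and 20110.2 CPM with saline against 19448 and 19942 CPM with immune complexes. The part of these cells in the level of Abcc1, Abcb1b or Slc22a12 was not tested.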

How the data were processed

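Total gene reads per gene were the counts deposited by the authors for each of 4 libraries, and the exon, intron and unique reads beside them came from the same files. The authors' RPKM values in those files were used only to check the exon lengths. STAR 2.5.2b, DESeq2 and GRCm38 are named in the submitters' processing notes, without their roles. The meaning of unique reads and the use of strand in counting are not stated in the labels or file headers. The authors' deposited table holds a signal (mean normalised count), a log2 fold change, its standard error, a score (the Wald statistic) and p-values, coded saline over immune complex. The sign of all 80 genes it calls is opposite to the read ratio immune complex over saline, as that coding gives.

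The counts were tested with edgeR 4.0.16 in R 4.3.3 (filterByExpr, TMM scaling, quasi-likelihood test, two-sided, Benjamini-Hochberg adjustment over all 16334 genes tested). With 2 libraries per group the fit had 2 residual degrees of freedom and a common biological coefficient of variation of 0.212. The fit was run on simulated counts with 200 genes changed 8 fold and the same spread for every gene. It recovered 100% of these with 7 false calls. Smaller differences and unequal spread were not simulated, so the simulation cannot tell whether such differences would be called here. Intervals are 95% intervals of single genes. CPM used TMM-scaled totals. The 55 genes, the lists and the rule for named genes were chosen with earlier results of these data known. Named were transporters with a mean of at least 5 CPM, the 3 with the lowest p per direction, and a list by known role. Results for a few genes are not reported here. Alternatives were DESeq2 1.42.0 (size factors or its own test), limma 3.58.1 (voom), no filter, exon or unique reads, the replicate number as a block, and each library left out. Gene positions are those of the files, whose gene IDs matched GENCODE M21 (GRCm38) for 54 of the 55. Replicate numbers are shared by the groups, but the deviations of same-numbered samples correlated at -0.13, and they were not treated as pairs.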

Additional observations from a re-analysis of the deposited data

How the results depend on the processing

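No transporter was called with DESeq2, its size factors, limma-voom, no filter, exon reads, unique reads or the replicate block. Over all genes the count of calls moved from 0 to 93 with DESeq2's own test, 2 with no filter, 1 with unique reads and 55 with the replicate block, and ranged from 0 to 279 when single libraries were left out (47 without saline replicate 1, 279 without saline replicate 2). Transporters called ranged from 0 to 1 in those settings, the 1 being Slco4a1 without saline replicate 2. Same-numbered samples deviated in opposite ways (correlation -0.13), and a block with the numbers crossed, chosen after seeing the data, called 160 genes and 1 transporter, again Slco4a1. The median log2 fold change of the tested transporters ranged from -0.10 to 0.041 with single libraries left out.

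Of 20 transporters with a printed log2 fold change, 10 kept their sign in every setting that gave a value, which was 12 settings for each gene except Slco1a5. Slc22a5 turned to 0.017 with exon and 0.0072 with unique reads. Slc22a19 turned to -0.071 with limma-voom and -0.070 with the replicate block and the crossed block. Slc22a26 turned to -0.12, -0.078 and -0.072 in the same settings. With single libraries left out, ranges crossed 0 for Slc22a8 (-0.60 to 0.13), Slc22a7 (-0.47 to 0.013), Slc22a5 (-0.059 to 0.041), Slc47a1 (-0.047 to 0.26), Slco1a6 (-0.47 to 0.66), Slc22a19 (-0.90 to 0.71), Slc22a26 (-1.58 to 1.27), Abcc3 (-0.89 to 0.16), Abcc4 (-0.65 to 0.028) and Abcb1a (-0.17 to 0.21). The cause of these changes was not tested. Slco1a5, one of the 10, had too few reads for a value with exon or with unique reads and was run in 10 settings. Where a group was left with 1 library, that library was assumed to vary like the other group. The precision is limited by the 2 libraries per group.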
